A study of Mus musculus with 12 samples.

Results

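Citrulline made by the small intestine begins as glutamine, glutamate or proline. The genes described here are the 9 that encode the enzymes and the carrier of that route: Aldh18a1, Prodh, Oat, Arg2, Nags, Cps1, Slc25a15, Otc and Ass1. They were chosen by name, and each was read from the array row whose only gene symbol was that gene, taking the row with the highest mean where there were several. A value was obtained for 8 of the 9, among 19938 genes measured. Ass1, which encodes the cytosolic enzyme that joins citrulline to aspartate, lay only on 2 probe sets that also carry the symbol Gm5424, so no value is given for it.

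The tissue was whole jejunum, the middle stretch of the small intestine. Wild-type (WT) mice were set against inducible knockouts (KO) of Fgfr1op, which encodes a centrosome protein and is now named Cep43, at days 6, 9 and 12 on a scale counted post-tamoxifen. Each of the 6 groups of genotype and day held 2 mice with 1 Affymetrix Mouse Gene 1.0 ST array each, 12 arrays in all. Tamoxifen, which switches on the recombinase in such models, was given intraperitoneally on 5 days in a row, 75 mg per kg each time. The sources used here do not give the driver of the recombinase or the deleted part of the gene, nor whether the WT mice were littermates, had the recombinase or were given tamoxifen. Because whole tissue was used, fewer cells of a type and less RNA per cell cannot be told apart in any value below.

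Enterocytes, the absorptive cells of the gut lining, take up glutamine and turn part of it into citrulline. The kidney converts citrulline into arginine for the rest of the body. The work is done in mitochondria. Pyrroline-5-carboxylate is made from glutamate by Aldh18a1 (pyrroline-5-carboxylate synthase) or from proline by Prodh (proline dehydrogenase), and Oat (ornithine aminotransferase) converts it to and from ornithine. Arg2, the mitochondrial arginase, is the other source of ornithine, from arginine. Nags makes N-acetylglutamate, the activator that Cps1 (carbamoyl phosphate synthetase) requires, Slc25a15 exchanges ornithine for citrulline across the inner membrane, and Otc (ornithine transcarbamylase) joins ornithine to carbamoyl phosphate to give citrulline.

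Promoter sequence was at hand in the RefSeq tables (build GRCm38.p6) for 7 of the 9 genes, not for Cps1 or Arg2. Those of Nags, Otc and Slc25a15 are shown because these mitochondrial genes had the most alike courses over the 12 arrays, as described further on. Each is printed 5′ to 3′ on the gene's own strand and ends just before the first annotated base of the gene, with GC boxes, the letters GGGCGG on either strand, in capitals. Nags lies on chromosome 11, plus strand, Otc on chromosome X, plus strand, and Slc25a15 on chromosome 8, minus strand.
Nags chr11:102145263-102145512: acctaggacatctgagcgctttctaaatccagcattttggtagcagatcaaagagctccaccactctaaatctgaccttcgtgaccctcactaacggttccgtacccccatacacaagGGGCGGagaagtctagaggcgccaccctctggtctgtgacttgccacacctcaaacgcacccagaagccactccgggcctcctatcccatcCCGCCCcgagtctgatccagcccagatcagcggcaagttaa
Otc chrX:10252055-10252229: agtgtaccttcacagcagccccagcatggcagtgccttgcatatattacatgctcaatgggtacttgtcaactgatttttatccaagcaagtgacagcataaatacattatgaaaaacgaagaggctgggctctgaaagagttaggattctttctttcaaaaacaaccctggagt
Slc25a15 chr8:22398622-22398871: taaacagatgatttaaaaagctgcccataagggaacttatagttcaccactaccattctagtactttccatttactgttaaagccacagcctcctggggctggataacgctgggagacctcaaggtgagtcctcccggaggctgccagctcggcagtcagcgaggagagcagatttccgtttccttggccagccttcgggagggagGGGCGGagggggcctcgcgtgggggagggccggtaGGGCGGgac

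The windows of the 3 genes differ in composition. Over the 250 bases before a listed transcript start, G and C made up 43.6% in Otc, 55.6% in Nags and 57.6% in the Slc25a15 window shown. The median of all 32851 such windows was 52.4%. The Otc window ends at base 10252304, inside the gene and past the stretch printed. A second listed window of Slc25a15, not shown, had 80.4% and held GC boxes too. Nags held GC boxes at bases -132 to -127 and -41 to -36 from its start, and the Slc25a15 window at -44 to -39 and -9 to -4. The window of Otc held none, and 32.7% of all windows held at least 1. No window of these genes matched the HNF4 site CAAAGNNCA, which 5.49% of all windows held, on either strand. The CDX site TTTATNG, held by 9.81%, was not matched. Nor were the C/EBP site TTGCNNAA (9.56%), the composite C/EBP and ATF site TGATGNAA (3.45%) and the TATA box TATAAA (12.4%). These are matches of letters within short windows and say nothing of whether a factor binds.

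All values below are log2 signal as deposited, so a step of 1 is a doubling of signal, and differences are KO minus WT from 1 limma fit over all 12 arrays. A gene was called where its p, adjusted by the Benjamini-Hochberg method over all 19938 genes, was under 0.05. Levels of different probe sets are not comparable with each other. The 12 arrays had medians of 5.95 to 6.02, and both arrays within a group had a correlation across genes of 0.992 to 0.997. Cep43 itself read 6.83 to 7.05 on the 6 WT arrays, 6.70 and 6.56 in KO at day 6, 6.60 and 6.63 at day 9 and 6.97 and 6.74 at day 12. It was called lower at day 9 only (-0.39, SE 0.11, adjusted p = 0.0184 in limma), and the KO values at day 12 lay within the WT range or just below it. Whether its probe set reads the deleted part is not known, so it is a weak check of the labels.

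All 8 genes were lower in KO jejunum at days 9 and 12. The differences ran from -1.14 (Prodh) to -3.94 (Arg2) at day 9 and from -1.10 (Prodh) to -4.26 (Arg2) at day 12, and all 8 were called on both days. Among all genes, 17.1% were called lower and 12.6% higher at day 9, and 13.7% were called in each direction at day 12. The median difference of the 8 was -1.75 at day 9 and -1.83 at day 12, against 0.02 over all genes on both days. At day 6 it was -0.42, and 3 of the 8 were called lower, beside 0.431% of all genes called lower and 0.597% called higher.

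**Figure D1:**
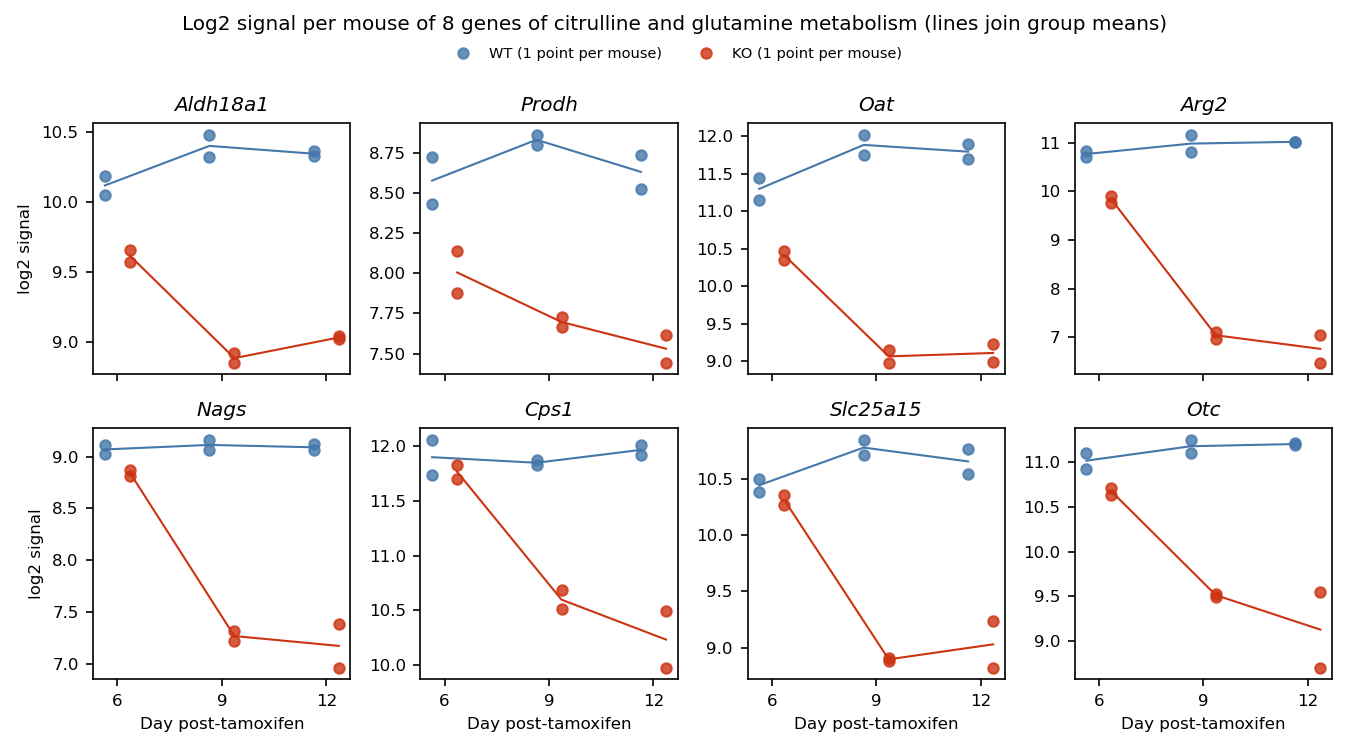
Log2 signal of the 8 measured genes, 1 point per mouse, in WT (blue) and KO (red) jejunum against the day post-tamoxifen, with lines joining group means and the genotypes set slightly apart along the day axis; each panel has its own scale. From day 9 every KO point lies below every WT point of the same gene, and between day 9 and day 12 the KO means move by 0.38 or less.

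The entry enzymes of the route were Aldh18a1 and Prodh. Aldh18a1 read 10.19 and 10.05 in WT at day 6, 10.48 and 10.32 at day 9, and 10.36 and 10.33 at day 12. In KO it read 9.66 and 9.57, then 8.85 and 8.92, then 9.02 and 9.05. All KO arrays were below all WT arrays, and the KO mice of a day lay within 0.09 of each other. The difference was -0.50 at day 6 (SE 0.09, adjusted p = 0.0359), -1.51 at day 9 (adjusted p = 6.81e-07) and -1.31 at day 12 (adjusted p = 1.3e-06), which is 2.85-fold and 2.48-fold lower on the last pair of days.

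Prodh, which feeds the route from proline, had the smallest difference of the 8 at days 9 and 12. Its WT values were 8.43 and 8.72 at day 6, 8.86 and 8.80 at day 9, and 8.74 and 8.53 at day 12. KO values were 7.87 and 8.14, then 7.73 and 7.66, then 7.62 and 7.44. The genotypes did not overlap on any day. The difference was -0.57 at day 6 (SE 0.13, not called, adjusted p = 0.0658), -1.14 at day 9 (adjusted p = 6.12e-05) and -1.10 at day 12 (adjusted p = 6.16e-05), or 2.20-fold and 2.15-fold lower.

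Both enzymes that yield ornithine, Oat and Arg2, had the widest differences of the 8. Oat read 11.44 and 11.15 in WT at day 6, 11.75 and 12.02 at day 9, and 11.90 and 11.69 at day 12, where KO read 10.47 and 10.35, then 9.15 and 8.98, then 9.23 and 8.98. The lowest WT value exceeded the highest KO value. The difference was -0.89 at day 6 (SE 0.14, adjusted p = 0.0161), -2.82 at day 9 (adjusted p = 1.62e-07) and -2.68 at day 12 (adjusted p = 1.33e-07), that is 7.06-fold and 6.43-fold lower at days 9 and 12.

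Arg2 fell furthest. WT mice read 10.71 and 10.83 at day 6, 10.80 and 11.16 at day 9, and 11.01 and 11.03 at day 12. KO mice read 9.91 and 9.76, then 7.11 and 6.97, then 6.48 and 7.05. Every KO value was below every WT value, and the KO mice of day 12 stood 0.57 apart. The difference was -0.94 at day 6 (SE 0.17, adjusted p = 0.0331), -3.94 at day 9 (adjusted p = 5.37e-08) and -4.26 at day 12 (adjusted p = 1.89e-08), a 15.3-fold and a 19.1-fold lower signal.

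The 4 genes of the citrulline step itself, Nags, Cps1, Slc25a15 and Otc, were not called at day 6 and were lower from day 9. Nags read 9.03 and 9.11 in WT at day 6, 9.16 and 9.06 at day 9, and 9.06 and 9.12 at day 12. Its KO values were 8.82 and 8.87, then 7.23 and 7.31, then 6.96 and 7.39. WT values of Nags spanned only 0.13 over 6 arrays, and all KO values lay beneath them. The difference was -0.23 at day 6 (SE 0.12, adjusted p = 0.536), -1.84 at day 9 (adjusted p = 1.27e-06) and -1.91 at day 12 (adjusted p = 6.58e-07), or 3.59-fold and 3.77-fold lower.

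Cps1, which Nags' product switches on, was the exception to separation at day 6. At day 6 its WT values were 12.06 and 11.74 and its KO values 11.83 and 11.70, so the genotypes overlapped. At day 9 it read 11.83 and 11.87 in WT against 10.51 and 10.68 in KO, and at day 12 it read 11.93 and 12.01 against 9.97 and 10.49. From day 9 the genotypes were apart. The difference was -0.13 at day 6 (SE 0.16, adjusted p = 0.851), -1.25 at day 9 (adjusted p = 0.000132) and -1.74 at day 12 (adjusted p = 9.08e-06), or 2.38-fold and 3.33-fold lower.

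Slc25a15, the ornithine and citrulline carrier, at day 6 read 10.39 and 10.50 in WT mice, with 10.27 and 10.36 in KO mice. At day 9 it read 10.71 and 10.85 against 8.88 and 8.91, and at day 12 it read 10.77 and 10.55 against 8.82 and 9.24. The gap between genotypes was narrow at day 6 and wide afterwards, with no overlap on any day. The difference was -0.13 at day 6 (SE 0.13, adjusted p = 0.815), -1.88 at day 9 (adjusted p = 1.81e-06) and -1.63 at day 12 (adjusted p = 4e-06), or 3.69-fold and 3.09-fold lower.

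Otc, which forms citrulline, read 11.11 and 10.93 in WT at day 6, 11.11 and 11.25 at day 9, and 11.21 and 11.19 at day 12. In KO it read 10.71 and 10.63, then 9.53 and 9.49, then 8.70 and 9.55. The KO values were lower throughout, and the KO mice of day 12 differed from each other by 0.85, more than any other pair for this gene. The difference was -0.34 at day 6 (SE 0.20, adjusted p = 0.585), -1.66 at day 9 (adjusted p = 0.000103) and -2.07 at day 12 (adjusted p = 1.64e-05), or 3.17-fold and 4.21-fold lower.

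**Figure D2:**
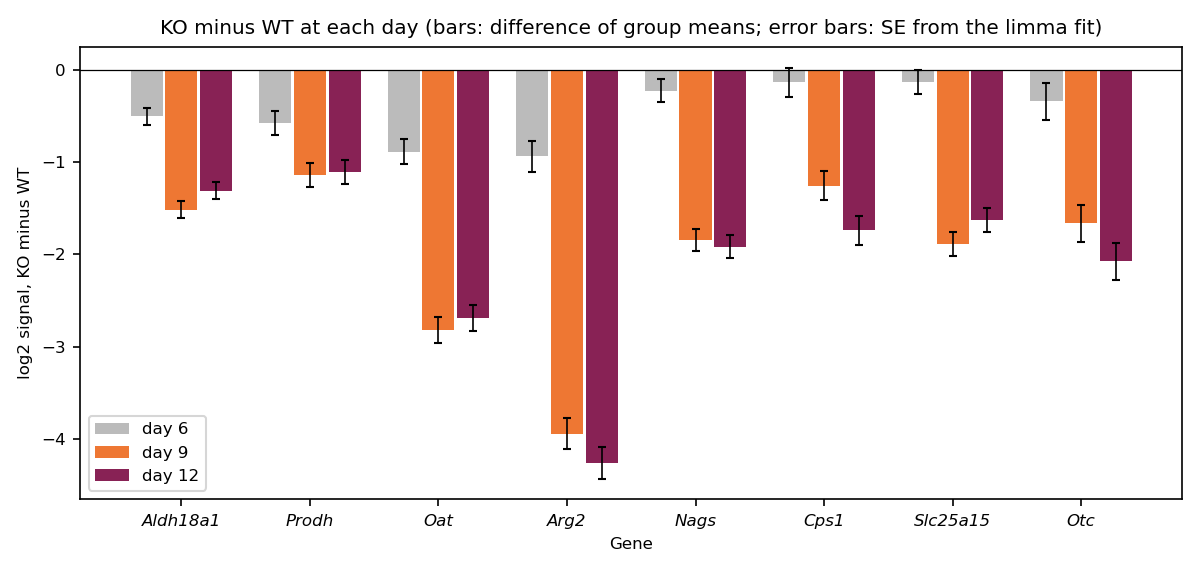
Difference of group means, KO minus WT, in log2 signal for each of the 8 genes at days 6, 9 and 12 (2 mice per group), with error bars of 1 SE from the limma fit. Bars of days 9 and 12 are of like size within a gene, from -1.10 in Prodh to -4.26 in Arg2, and bars of day 6 reach -0.94 at most.

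By separation alone, both KO arrays lay below both WT arrays in 7 of 8 genes at day 6 (Cps1 was the exception) and in all 8 at days 9 and 12, where 20.9%, 31.1% and 26.6% of all genes did so at days 6, 9 and 12. Over all days, all 6 KO arrays lay below all 6 WT arrays in 7 of the 8 genes, beside 4.40% of all genes. Averaged over days, all 8 were called lower, beside 16.9% of all genes. The smallest p an exact permutation test can reach with 2 mice per genotype is 0.333, and the tests of a single day therefore rest on the spread pooled over all groups.

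At day 6 the 3 called genes were Oat, Arg2 and Aldh18a1, and these calls were fragile. All 3 ended when WT replicate 1, KO replicate 1 or KO replicate 2 of day 6 was left out, which left 0 of 8 genes called, and without WT replicate 2 only Oat was called (adjusted p = 0.0257). Leaving out either WT array of day 12 also left 1 call, that of Oat. Smooth muscle markers moved with genotype at day 6. The 10 markers averaged -0.06 and 0.63 relative to the WT mean in the WT mice and -1.05 and -1.22 in the KO mice, with a median difference of -1.55 and 1 of 10 (Hspb6) called lower. With that average as a covariate no gene of the route was called at day 6, the adjusted p being 0.57 for Oat, 0.496 for Arg2 and 0.39 for Aldh18a1, while their differences were -0.49, -0.91 and -0.55.

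Within KO, 7 of 8 genes fell from day 6 to day 9, beside 14.5% of all genes called lower. The largest step was that of Arg2, -2.79 (SE 0.17, adjusted p = 1.81e-06), then Nags, -1.57 (SE 0.12), Slc25a15, -1.42 (SE 0.13), and Oat, -1.35 (SE 0.14). Cps1 (-1.17), Otc (-1.16) and Aldh18a1 (-0.73) were called too. Prodh changed by -0.31 (SE 0.13, adjusted p = 0.104), so its group means at days 6 and 9 were not told apart. From day 9 to day 12 none of the 8 was called in limma (1 had an unadjusted p under 0.05), where 14.1% of all genes were called higher and 8.81% lower.

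No change from day 9 to day 12 in KO passed the adjusted threshold, with unadjusted 95% intervals of -0.71 to -0.02 for Cps1, -0.83 to 0.06 for Otc and -0.26 to 0.35 for Oat. The KO mice of day 12 differed from each other. Replicate 1 read below replicate 2 by 0.85 in Otc, 0.57 in Arg2, 0.52 in Cps1 and 0.42 in both Nags and Slc25a15, and above it by 0.25 in Oat and 0.18 in Prodh. Without replicate 2, Otc (-0.81, adjusted p = 0.00206), Cps1 (-0.62, adjusted p = 0.0213) and Arg2 (-0.56, adjusted p = 0.0384) were called lower at day 12 than at day 9, and without replicate 1 none was. The same mice also differed in enterocyte marker mean, -1.45 in replicate 1 and -1.03 in replicate 2, and in smooth muscle mean, 0.94 and 0.38. The part of these in the gap was not tested.

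In WT mice, none of the 8 was called for a change over the 3 days (moderated F in limma, adjusted p from 0.268 in Oat to 0.983 in Nags, with 2 at an unadjusted p under 0.05), beside 0.0201% of all genes called. Their WT ranges over 6 arrays ran from 0.13 in Nags to 0.87 in Oat, where WT day 6 read lowest. The genotype difference itself depended on the day in 7 of the 8 (moderated F over both interaction terms), beside 18.5% of all genes. Prodh was the one not called (adjusted p = 0.0735). With the smooth muscle covariate 5 were called, the calls of Cps1 (adjusted p = 0.0635) and Otc (adjusted p = 0.108) having ended. Fewer of all genes were called with it as well.

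Markers of cell types also differed between genotypes, and their levels are given beside those of the route. Relative to the WT mean, the 8 genes averaged -0.60 and -0.62 in KO mice at day 6, -1.91 and -1.92 at day 9 and -2.19 and -1.89 at day 12. The 12 enterocyte markers averaged -0.21 and -0.18, then between -1.05 and -0.98, then -1.45 and -1.03. Of these 12, 6 were called lower at day 9 with a median difference of -0.35, and 7 lower and 1 higher at day 12 with a median of -0.79. The mean is drawn down by Lct, the brush border lactase, at -5.59 and -6.32, while Apoa4 (0.12 and -0.01) and Apob (-0.05 and -0.17), which package dietary fat, were not called.

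Markers of epithelium as a whole moved in both directions. Of 10, 3 were called higher and 2 lower at day 9 (median difference 0.07), and 2 higher and 3 lower at day 12 (median -0.04). The 10 averaged 0.03 to 0.05 in KO at day 6, 0.29 to 0.30 at day 9 and -0.13 to 0.14 at day 12, with Epcam at -0.05 and -0.22 and Cdh1 at 0.19 and 0.22 at days 9 and 12, none of these called. Krt18 (1.71 and 1.54) and Krt19 (0.37 and 0.54) were called higher on both days, and Krt8 at day 9 (0.84). Vil1, which bundles actin in microvilli (-0.85 and -0.96), and Tjp3 (-0.48 and -0.57) were called lower on both days, and Elf3 at day 12 (-0.66). Crypt markers fell, 3 of 7 at day 9 and 6 of 7 at day 12, led by the stem cell marker Olfm4 at -4.80 and -6.61.

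Liver also expresses some genes of this route. The liver marker Alb averaged about 4.95 in KO and 5.02 in WT at day 9 and was called at neither day 9 nor day 12 (-0.07 and -0.06). Of 8 liver markers, 1 was called higher and 1 lower at day 9 and 2 higher at day 12, among them Tat, a tyrosine aminotransferase that glucocorticoids induce in liver, at 2.11 and 2.43. None of 6 pancreas markers was called between genotypes in limma at day 6, 9 or 12 (1 had an unadjusted p under 0.05, at day 12). Macrophage markers averaged 0.26 to 0.29 above WT in KO at day 9 (2 of 8 called higher) and 0.26 to 0.27 at day 12 (4 called higher and 2 lower). Of 7 leukocyte markers, 2 were called higher and 1 lower at day 9, and 4 lower at day 12 with a median difference of -0.91. The T cell marker Cd3e was lower on both days (-1.14 and -1.03). Of 8 fibroblast and endothelial markers, 3 were called higher on each day, among them the collagen gene Col1a1 (1.18 and 0.57). The part of these cell types in the differences of the route was not tested.

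**Figure D3:**
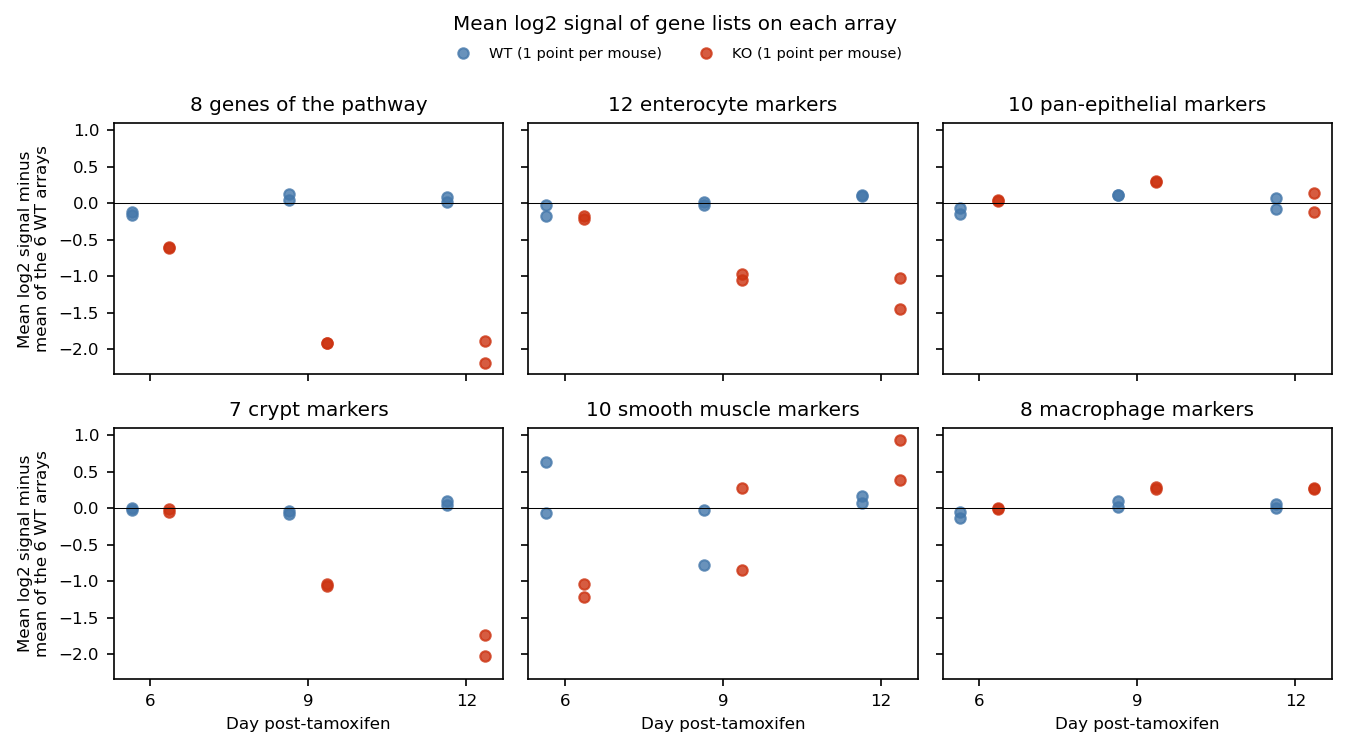
Mean log2 signal of the 8 genes and of 5 marker lists on each array, relative to the mean of the 6 WT arrays, against the day post-tamoxifen (WT blue, KO red, 1 point per mouse, genotypes set slightly apart along the day axis). The 8 genes reach -1.92 at day 9 while enterocyte markers reach about -1.05, pan-epithelial markers stay between -0.15 and 0.30, and smooth muscle markers scatter in both genotypes.

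Taking each array relative to its enterocyte marker mean, a scaling chosen after seeing the data, raises every gene's difference on a day alike. The order of the genes and the gaps between them therefore stay as they were. Arg2 was then -2.93 at day 9 and -2.92 at day 12, and Oat -1.81 and -1.34, all called. Nags (-0.83 and -0.57) and Otc (-0.66 and -0.73) were called on both days. Slc25a15 was called at day 9 (-0.88) and not at day 12 (-0.29), Aldh18a1 likewise (-0.50, then 0.03), Cps1 at day 12 only (-0.24, then -0.40), and Prodh on neither (-0.13, then 0.24). That made 6 of 8 at day 9 and 5 of 8 at day 12, all called lower, beside 1.92% and 1.22% of all genes called lower and 18195 and 19138 of the 19938 genes called higher. The scaling raised the median of all genes by 1.01 and 1.34. How much of each difference goes with the number or maturity of enterocytes was not tested.

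The arrays also show how alike the 8 courses were. Likeness was measured as the root mean square difference in log2 signal over the 12 arrays, each gene taken relative to its own WT mean. Nags was closest to Slc25a15 (0.179) and to Otc (0.181), Aldh18a1 was closest to Prodh (0.224), and Cps1 to Otc (0.251). Arg2 stood furthest from the others, its nearest being Oat at 0.873 and its farthest Prodh at 1.73. Among genes outside the route, those nearest to Cps1 were Trmt1l (0.116), Cracd (0.133) and Nr1h3 (0.153), the last a nuclear receptor for oxysterols. Nearest to Otc were Lgr5 (0.148), a stem cell receptor of the crypt, Tubal3 (0.157) and Apoc3 (0.160), an apolipoprotein.

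Enzymes of glutamine and glutamate next to the route moved in both directions. Of the 10 measured, 3 were called higher and 3 lower at day 9, and 5 higher and 2 lower at day 12. None was called in limma at day 6, where 3 were higher and 1 lower at an unadjusted p under 0.05. Glud1, the mitochondrial glutamate dehydrogenase, read 11.72 and 11.89 in WT against 9.999 and 9.92 in KO at day 9, with a difference of -1.85 there and -1.73 at day 12 (SE 0.13, adjusted p = 1.7e-06 and 1.9e-06). Asns, which makes asparagine and turns glutamine into glutamate, read 9.83 and 9.14 in WT against 11.21 and 11.14 in KO at day 9, and was higher by 1.69 and 1.92 (SE 0.18). Gclc, which starts glutathione synthesis from glutamate, was higher by 1.07 on both days.

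Glutamine synthetase, Glul, was 0.17 at day 9 (not called) and rose by 0.70 at day 12 (SE 0.10). Gpt2, the mitochondrial alanine aminotransferase, rose by 0.99 at day 12, and Got2, the mitochondrial aspartate aminotransferase, fell by 0.52 at day 9.

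Of 5 proline enzymes, 2 were called lower and 1 higher at day 9, and 3 lower at day 12. Pepd, the dipeptidase that releases proline from dietary and collagen peptides, was -2.25 and -2.43 (SE 0.10, adjusted p = 7.9e-08 and 2.6e-08). Aldh4a1, which oxidises pyrroline-5-carboxylate to glutamate, at day 6 read 8.09 and 8.24 in WT mice and 8.50 and 8.89 in KO mice, where it was not called (0.53, adjusted p = 0.12). It was then lower by a difference of -1.53 at day 9 and -2.33 at day 12 (SE 0.14). Pycr3, which completes proline synthesis from ornithine, was -0.26 at day 9 (not called) and -0.89 at day 12, and the collagen prolyl hydroxylase P4ha1 was 0.82 at day 9 only.

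Arginine enzymes gave 5 called higher and 1 lower of 10 at day 9, and 3 higher and 1 lower at day 12. Ddah1, which degrades methylated arginine, was higher by 1.67 and 2.15 (SE 0.36). Arg1, the cytosolic arginase, read 0.99 higher at day 9 (SE 0.24, adjusted p = 0.0083) and 0.35 at day 12, not called, a course unlike that of Arg2. Its call ended without KO replicate 1 or WT replicate 2 of day 9. The WT arrays read only 4.81 to 5.26 for Arg1, below the array medians of 5.95 to 6.02. Odc1, the ornithine decarboxylase of polyamine synthesis, was 0.59 at day 9, a call that ended without KO replicate 1 or WT replicate 1 of that day. Relative to the pan-epithelial markers Odc1 was not called either (adjusted p = 0.0768). Asl, which splits argininosuccinate to arginine, was 0.04 at day 9 and 0.34 at day 12 (adjusted p = 0.019). The day 12 call of Asl ended without KO replicate 2 or either WT array of that day. It also ended relative to the pan-epithelial markers (adjusted p = 0.143) and with the arrays of day 12 alone (adjusted p = 0.0727). Nos2, the inducible nitric oxide synthase, was -1.34 at day 12 (SE 0.43, adjusted p = 0.038), and without WT replicate 1 or KO replicate 2 of day 12 it was -0.63 and -0.75 and not called. Its call also ended under 4 other settings, with adjusted p of 0.128 under robust moderation, 0.119 with the arrays of day 12 alone, 0.078 with the smooth muscle covariate and 0.0733 with array weights, and, with an adjusted p just above the threshold, without any 1 of the KO arrays of days 6 and 9 or the WT arrays of day 6. Agmat, which hydrolyses agmatine, was -0.47 at day 9 and 1.04 at day 12. The day 9 call of Agmat ended without KO replicate 1 or either WT array of day 9, and after quantile normalisation (adjusted p = 0.0674).

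Of 10 mitochondrial carriers and cofactors of Cps1, 4 were called lower and 1 higher at day 9 and 2 lower at day 12. Slc25a22, a glutamate carrier, was -0.75 and -1.96. The aspartate and glutamate carriers Slc25a12 (-1.23, SE 0.26) and Slc25a13 (-0.83, SE 0.10) were lower at day 9 and not called at day 12 (-0.21 and -0.11). The second ornithine carrier, Slc25a2, was not called on either day (-0.10 and -0.03). Its probe set read only 3.79 to 4.43 over the 12 arrays, below the array medians of 5.95 to 6.02, so the lack of a call says little.

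Amino acid and peptide transporters of the plasma membrane fell more often than they rose, 9 lower and 3 higher of 16 at day 9, and 8 lower and 3 higher at day 12. Slc1a1, a transporter of glutamate and aspartate, was the only one called at day 6. It read 8.75 and 8.91 in WT against 7.29 and 7.35 in KO at day 6, 9.06 and 9.01 against 5.17 and 4.96 at day 9, and 9.08 and 8.70 against 5.15 and 5.25 at day 12. The genotypes were far apart on each day, with differences of -1.51 (SE 0.13, adjusted p = 0.000318), -3.97 and -3.69. At day 6 its adjusted p was 0.0307 with the smooth muscle covariate.

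Other apical and basolateral transporters followed from day 9. Slc7a8 was -3.36 and -3.30 (SE 0.44), Slc36a1, which carries proline with protons, -3.07 and -2.84, and Slc15a1, the peptide transporter, -1.69 and -2.05. Slc6a19, the main apical route of neutral amino acids including glutamine, was -1.20 and -2.28, and Slc7a9, an apical carrier of arginine and other basic amino acids, -1.25 and -1.15. The glutamine transporter Slc1a5 was not called (0.15 and 0.29). Slc38a2 was higher by 0.40 at day 9 and 1.06 at day 12. Slc7a5, which exports glutamine in exchange for other neutral amino acids, was higher by 0.70 and 1.16. The day 9 calls of both ended relative to the pan-epithelial markers (limma adjusted p = 0.362 and 0.0678) and under some other alternatives. Slc38a1 was called higher on both days (0.69 and 0.87). Slc6a20a was called lower at day 9 (-2.40) and was not called at day 12 (-0.58).

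Of 10 transcription factors tied to these genes, 3 were called higher and 4 lower at day 9, and 2 higher and 4 lower at day 12. Ppargc1a, a coactivator of mitochondrial genes, was -3.70 and -3.80 (SE 0.26). Nr3c1, the glucocorticoid receptor, was -1.06 and -0.90 and Hnf4g -1.10 and -0.58, the latter not called at day 12 without KO replicate 1 or either WT array of that day. Nor was Hnf4g called at day 12 relative to the pan-epithelial markers, with the smooth muscle covariate or with the arrays of day 12 alone. Hnf4a was -0.41 at day 9 (adjusted p = 0.022, not called without KO replicate 1 or either WT array of day 9) and -0.26 at day 12. Its day 9 call also ended after quantile normalisation (adjusted p = 0.128) and with the arrays of day 9 alone (adjusted p = 0.0555). Atf4, an activator of amino acid stress genes that include Asns, was higher by 0.80 and 1.06 (SE 0.12). Relative to the enterocyte marker mean, Hnf4a at day 9 (0.60) and Hnf4g (0.76) and Nr3c1 (0.44) at day 12 took the opposite sign. That scaling raised every gene's difference alike, by 1.01 at day 9 and 1.34 at day 12. Any smaller fall turns sign under it, so the change of sign is not particular to these factors.

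**Figure D4:**
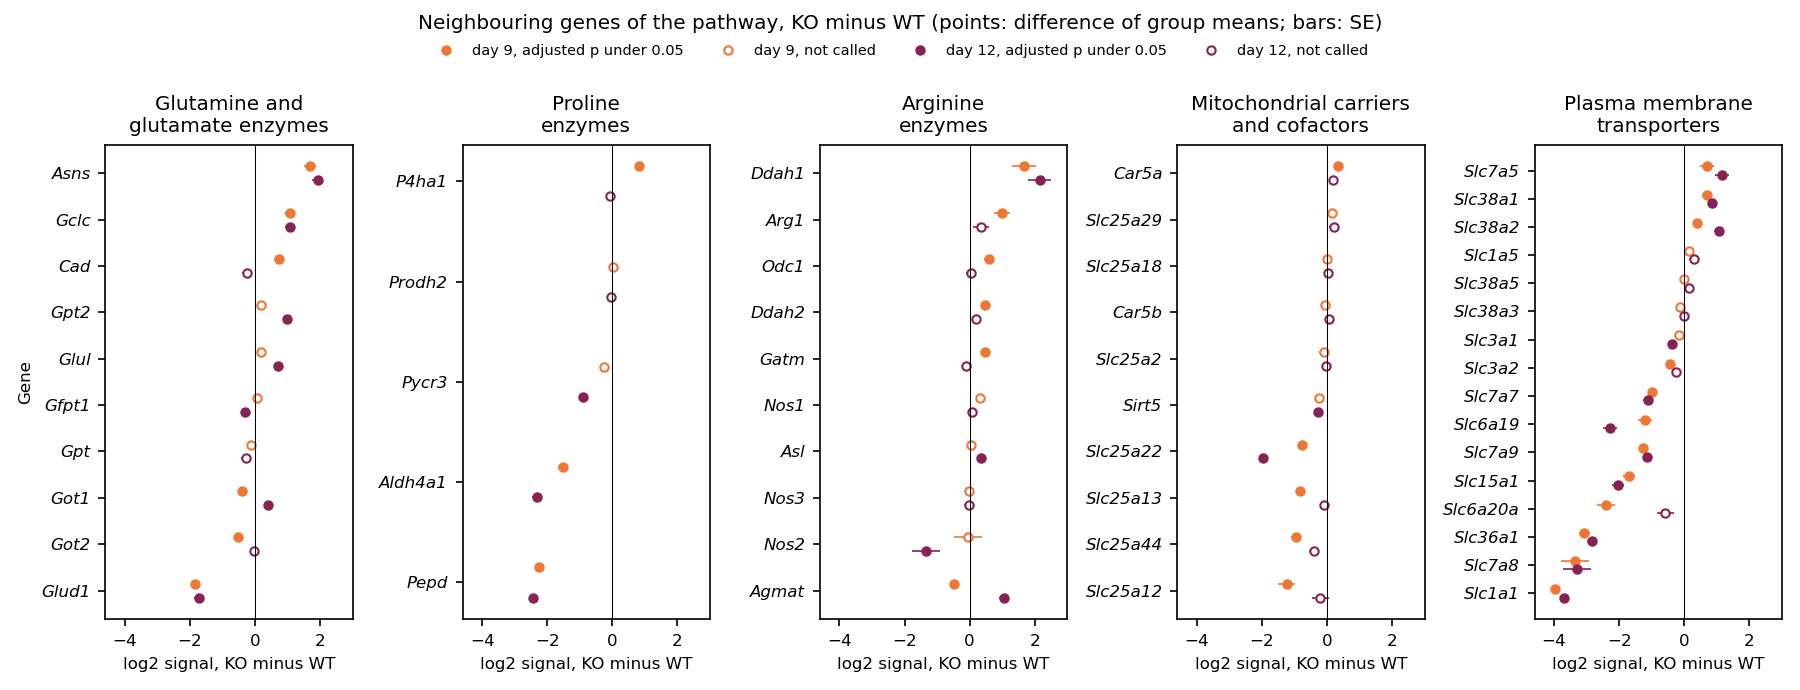
Difference of group means, KO minus WT, in log2 signal for genes beside the route in 5 lists, at day 9 (orange) and day 12 (purple), with bars of 1 SE and filled points where the adjusted p was under 0.05. Glud1, Pepd, Aldh4a1, Slc1a1, Slc7a8 and Slc36a1 lie far to the left, and Asns and Ddah1 to the right.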

How the data were processed

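Whole-jejunum RNA was hybridised to 1-colour arrays, 2 mice per genotype and day, per the labels. The authors deposited log2 signal for 35556 probe sets, and these log2 values were used as deposited. Limma and R 3.5 appear, with no stated role, in the submitters' processing notes; background correction and normalisation: not given in the sources used here. Of the probe sets, 21789 carried 1 gene symbol, 1621 several and 12146 are unnamed here. The row with the highest mean was kept per symbol, giving 19938 genes, with no filter on low signal.

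Group means were fitted over all 12 arrays with limma 3.58.1 in R 4.3.3 (lmFit and eBayes, 6 residual and 5.23 prior degrees of freedom), tested on simulated data, with two-sided p-values adjusted by Benjamini-Hochberg over all genes and a threshold of 0.05. Arrays count no reads, and the number of mice limits precision (median SE of a difference at 1 day 0.115).

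The 9 genes, the lists and the tests were chosen with earlier results of these data known. The plan for names took all 9 genes, the 3 called genes of each list with the largest difference at days 9 and 12, and genes next to the route. It also took the 3 genes most like Cps1 and Otc over the arrays. The text departs from the plan. Slc25a44 (-0.96) and Ddit3 (1.15) at day 9 and Sirt5 (-0.28) at day 12 met it and are named only here. Gpt2, Got2, Slc15a1, Slc38a1, Slc38a2, Slc6a20a and Slc7a5 are named outside it. Slc25a44, Ddit3, Sirt5, Slc38a1 and Slc6a20a were not followed singly under the alternatives. Promoters came from RefSeq (GRCm38.p6). Replicate numbers were not taken as pairs. Deviations of same-numbered mice correlated at 0.18, -0.0897 and 0.113 at days 6, 9 and 12. With 2 mice per group these values cannot show whether the mice were paired. Alternatives changed the scaling, the filter, the probe set rule, the moderation, array weights, a replicate block, a smooth muscle covariate, the arrays fitted and each array left out in turn.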

Additional observations from a re-analysis of the deposited data

Results flagged for a closer look

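By the moderated F test over both interaction terms in limma, the difference between genotypes changed with the day in 7 of the 8 genes. All 12 arrays were in the fit, and 18.5% of all genes were called. The adjusted p was 1.13e-05 for Arg2, 0.00013 for Nags, 0.00013 for Oat, 0.000207 for Slc25a15, 0.000838 for Aldh18a1, 0.00158 for Cps1 and 0.00412 for Otc. The step lay between days 6 and 9. The difference moved there by -3.00 in Arg2, -1.93 in Oat, -1.75 in Slc25a15 and -1.62 in Nags. It moved by -1.32 in Otc, -1.12 in Cps1 and -1.01 in Aldh18a1, and all 7 were called. From day 9 to day 12 it moved by -0.48 in Cps1, -0.41 in Otc, -0.32 in Arg2 and 0.26 in Slc25a15. The other moves were 0.20 in Aldh18a1, 0.14 in Oat and -0.07 in Nags, and none of the 7 was called. With the smooth muscle covariate the interaction was called in 5 of the 8, not in Cps1 (adjusted p = 0.0635) or Otc (adjusted p = 0.108). Fewer of all genes were called with the covariate too, as counted below.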

How the results depend on the processing

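At days 9 and 12 all 8 genes were called lower under all 22 alternatives chosen at the outset, and averaged over days under the 21 that could be run. Relative to the enterocyte marker mean, a scaling added after seeing the data that moved the median of all genes by 0.0973, 1.01 and 1.34 at days 6, 9 and 12, 1, 6 and 5 of the 8 were called, and 4 in the interaction test. All genes called then numbered 90, 18577 and 19382 at the 3 days, 19325 averaged over days, 17926 from KO day 6 to day 9, 19005 for the interaction and 19 for the WT course. Under that scaling Aldh18a1 was 0.031 at day 12 and 0.086 from KO day 6 to day 9, Prodh 0.24 and 0.51, and from KO day 9 to day 12 Nags was 0.13 and Prodh 0.060. It also turned 10 of the 53 calls of neighbouring genes that were followed under the alternatives. At day 9 these were Got2 (0.49), Agmat (0.54), Slc25a22 (0.25), Slc25a13 (0.18) and Hnf4a (0.60). At day 12 they were Pycr3 (0.45), Nos2 (0.0012), Slc7a9 (0.19), Nr3c1 (0.44) and Hnf4g (0.76). Of the 53, 44 were kept under all the alternatives chosen at the outset, and none turned.

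With the smooth muscle covariate 0 of the 8 were called at day 6, and all genes called numbered 17 at day 6, 2097 from KO day 6 to day 9 and 1721 for the interaction. From KO day 9 to day 12, 1 gene of the 8 was called after quantile normalisation and 1 relative to the pan-epithelial markers. The small changes there turned sign under quantile normalisation (Aldh18a1 -0.0073, Oat -0.13, Slc25a15 -0.037), relative to the pan-epithelial markers (Nags 0.19, Prodh 0.12, Arg2 0.0071) and with the covariate (Nags 0.072, Oat -0.22). Pan-epithelial scaling gave 2410 genes for the interaction. Array weights gave 415 genes at day 6, 2374 from KO day 9 to day 12 and 10 for the WT course. That course gave 1 gene with centred arrays, 1 after quantile normalisation, 1 without dim genes, 1 with the covariate and 8 relative to the pan-epithelial markers.

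Leaving out 1 array at a time, the 8 gave 0 to 3 calls at day 6 and 0 to 3 from KO day 9 to day 12. Genes called ran from 21 to 291 at day 6, from 3646 to 6542 at day 9, from 2315 to 5633 from KO day 6 to day 9, from 2028 to 5529 from KO day 9 to day 12, from 2191 to 4667 for the interaction and from 0 to 8 for the WT course. Cps1 at day 6 ran from -0.29 to 0.025, and from KO day 9 to day 12 Otc ran from -0.81 to 0.041, Nags from -0.30 to 0.12, Oat from -0.079 to 0.17, Arg2 from -0.56 to 0.0067 and Slc25a15 from -0.074 to 0.34.

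The main fit did not treat replicate numbers as pairs. With replicate number as a block, 2 of the 8 were called at day 6, Oat and Prodh, and genes called numbered 101 at day 6 and 0 for the WT course. The cause of these changes was not tested.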
